A study of Homo sapiens with 16 samples.

Results

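HT-1080 cells given erastin were compared between 2 manipulations of the same ubiquitin ligase system, overexpression of WDR76 (oeWDR76/Erastin) and siRNA depletion of DCAF8 (siDCAF8/Erastin). The comparison holds 4 of the 16 libraries of the series, taken by their labelled genotype and treatment, with 2 libraries in each group and no other reference. HT-1080 cells are a long-established line from a human fibrosarcoma. Both groups received erastin at 10 µM for 24 h. The oeWDR76 and siDCAF8 groups without erastin, again 2 libraries each, were used to test whether a difference depended on the drug. No empty-vector library accompanies oeWDR76, so an effect of WDR76 and an effect of the expression vector or its delivery cannot be told apart. Without a control in the comparison, effects of WDR76 overexpression and of DCAF8 depletion or siRNA delivery cannot be told apart either. Unless stated otherwise, higher, lower, rise and fall describe oeWDR76/Erastin relative to siDCAF8/Erastin. The promoter that drives WDR76 and the number of siRNAs against DCAF8 were not stated in the labels. Whether a group's 2 libraries were separate cultures is not said. The p-values then measure only the spread between libraries of a group, estimated jointly over all 16 libraries of the series.

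DCAF8 is a substrate receptor of the CRL4 ubiquitin ligases, which mark bound proteins for degradation, and WDR76 is a nuclear WD40-repeat protein that has also been described as a CRL4 receptor. Erastin blocks system xc-, the antiporter built from SLC7A11 and SLC3A2 that imports cystine for glutathione synthesis. Without glutathione the peroxidase GPX4 cannot clear lipid peroxides, and iron-rich cells such as HT-1080 die by ferroptosis. Loss of cystine also activates ATF4, a transcription factor that raises genes of amino acid synthesis and transport. Interferon-stimulated genes are raised when secreted interferons activate a factor complex that holds STAT2 and IRF9 and binds interferon response elements in promoters.

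Promoters of 2 gene groups on which the results turn are shown first, as 300 bases of GRCh38.p14 from RefSeq, running from 250 bases before to 50 bases after the start of the gene. In the first 3, which belong to the interferon-stimulated genes with the largest differences among those with a match, capitals mark GAAANNGAAA on either strand, overlapping matches merged. IFI6 lies on the minus strand at chr1:27672143-27672442, ISG15 on the plus strand at chr1:1013247-1013546 and IFI44 on the plus strand at chr1:78649539-78649838.
IFI6: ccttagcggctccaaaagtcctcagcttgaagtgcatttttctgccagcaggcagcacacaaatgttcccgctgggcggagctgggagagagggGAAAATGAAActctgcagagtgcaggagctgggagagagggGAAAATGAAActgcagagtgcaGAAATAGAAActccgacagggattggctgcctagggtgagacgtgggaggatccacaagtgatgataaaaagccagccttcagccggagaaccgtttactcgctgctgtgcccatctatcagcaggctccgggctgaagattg
ISG15: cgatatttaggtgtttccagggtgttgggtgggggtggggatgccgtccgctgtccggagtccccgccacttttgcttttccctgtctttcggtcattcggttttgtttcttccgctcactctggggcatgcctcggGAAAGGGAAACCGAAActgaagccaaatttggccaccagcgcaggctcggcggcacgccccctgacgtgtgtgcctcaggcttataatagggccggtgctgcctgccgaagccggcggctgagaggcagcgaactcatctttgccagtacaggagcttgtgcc
IFI44: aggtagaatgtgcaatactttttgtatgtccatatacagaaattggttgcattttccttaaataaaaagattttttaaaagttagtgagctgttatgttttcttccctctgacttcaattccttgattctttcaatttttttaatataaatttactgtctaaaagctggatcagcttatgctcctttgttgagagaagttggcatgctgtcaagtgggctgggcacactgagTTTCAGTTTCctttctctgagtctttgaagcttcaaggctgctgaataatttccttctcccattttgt
IFI6 holds 3 matches, ISG15 holds 2 that overlap, and IFI44 holds 1 on the opposite strand. The letters were found in 17 of 26 promoters (65.4%) of interferon-stimulated effector genes, against 265 of 9283 promoters (2.85%) of all tested genes. In the next 2, taken from genes of the amino acid response, capitals mark TGATGNAA on either strand, a form of the element that ATF4 and its partners bind. ASNS lies on the minus strand at chr7:97872359-97872658 and CHAC1 on the plus strand at chr15:40953221-40953520.
ASNS: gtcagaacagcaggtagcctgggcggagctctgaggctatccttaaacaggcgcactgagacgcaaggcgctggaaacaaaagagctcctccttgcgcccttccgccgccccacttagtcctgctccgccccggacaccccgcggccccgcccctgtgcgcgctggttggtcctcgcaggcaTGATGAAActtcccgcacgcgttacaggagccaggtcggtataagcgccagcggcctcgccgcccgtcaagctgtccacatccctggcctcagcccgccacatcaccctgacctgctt
CHAC1: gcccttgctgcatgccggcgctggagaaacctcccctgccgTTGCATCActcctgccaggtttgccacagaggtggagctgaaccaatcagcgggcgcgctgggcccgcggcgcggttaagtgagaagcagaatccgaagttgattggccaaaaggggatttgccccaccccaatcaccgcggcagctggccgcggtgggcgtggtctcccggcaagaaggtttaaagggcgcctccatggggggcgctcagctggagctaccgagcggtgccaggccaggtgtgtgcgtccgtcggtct
These letters were found in 5 of 29 promoters (17.2%) of the list of ATF4 and amino acid response genes, those of ASNS, CHAC1, ATF3, SLC3A2 and SLC7A1, against 154 of 9283 (1.66%) of all tested genes.

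Levels were deposited as FPKM, a fragment count scaled by transcript length and by the total of the library, and differences are given as log2 of FPKM plus 1, oeWDR76/Erastin minus siDCAF8/Erastin, with the standard error of the fit. The depth of the libraries is unknown from the sources used here. Across genes, the replicates had a Pearson r of 0.997 in oeWDR76/Erastin and 0.996 in siDCAF8/Erastin, as a description of these libraries. Of 12 mesenchymal markers 11 had a mean of at least 1 FPKM, with summed levels of 4988 to 5170 FPKM in oeWDR76/Erastin and 3875 to 4205 FPKM in siDCAF8/Erastin. Of the 7 epithelial markers with values 1 reached that level, and their sums were 5.07 to 6.04 against 4.86 to 6.22 FPKM. Leukocyte markers summed to 174.8 to 176 FPKM in oeWDR76/Erastin and 81.6 to 92.7 FPKM in siDCAF8/Erastin, most of it CD68. CSF1R and CD3E were also higher there, CSF1R at 10.01 and 9.71 against 4.91 and 4.53 FPKM and CD3E at 2.0 and 1.66 against 0.57 and 0.61 FPKM, the pan-leukocyte PTPRC stood at 1.04 and 1.0 against 1.13 and 1.71 FPKM, and SPI1 was at or near 0. Neural markers summed to 83.9 FPKM in both oeWDR76/Erastin libraries and 34.2 to 37.7 FPKM in siDCAF8/Erastin, most of it TUBB3, and SOX2 and ELAVL3 were at or near 0. Endothelial markers summed to 2.03 to 2.1 and 1.33 to 1.35 FPKM. The part of other cell types in the results was not tested.

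The manipulated genes were read first. WDR76 (chr15:43826914-43868419) had 324 and 242 FPKM in oeWDR76/Erastin cells, against 3.63 and 3.57 FPKM in siDCAF8/Erastin cells, a difference of 5.93 ± 0.11 (adjusted p = 3.85e-17). DCAF8 (chr1:160215715-160262560) had 31.1 and 31.2 FPKM in oeWDR76/Erastin cells, against 10.8 and 10.3 FPKM in siDCAF8/Erastin cells, a difference of 1.48 ± 0.08 (adjusted p = 4.76e-11). Both transcripts were more abundant in the overexpressing cells, and for neither did the libraries of the 2 groups overlap. HELLS (chr10:94545767-94602099), which encodes the chromatin remodeler LSH, described as a substrate of these ligases, had 10.8 and 10.96 FPKM with WDR76 overexpressed and 5.85 and 5.89 FPKM with DCAF8 depleted (0.79 ± 0.07, adjusted p = 2.44e-08). Of 29 tested genes of the CRL4 core and its receptors 9 were higher and 14 lower. Of them WDR76, DCAF8 and DCAF15 were higher by at least 2-fold, and DCAF15 (1.03) was at 0.44 after the correction for GC content and length described below. The scaffolds CUL4A (-0.999) and CUL4B (-0.84, -0.48 corrected) and the adaptor DDB1 (-0.74) were lower. Among 19 tested genes of LSH and DNA methylation, 9 were higher and 4 lower at a median of 0.10, and 10 and 5 at 0.30 after that correction. For both lists, the shares over all tested genes were 43.7% higher and 33.7% lower, and 34.5% and 39.0% after it. UHRF1, which recruits the maintenance methyltransferase, had 18.1 and 19.1 FPKM in oeWDR76/Erastin and 10.9 and 10.9 FPKM in siDCAF8/Erastin (0.72), the corepressor TRIM28 differed by 0.88 (0.37 corrected), and the methyl-binding ZBTB38 was lower (-1.09, -0.54 corrected).

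Of 11260 genes tested, 8719 (77.4%) were called at an adjusted p under 0.05, 4919 higher (43.7%) and 3800 lower (33.7%), so a call alone says little here and sizes carry the description. Counts of list members called higher or lower, above and below, are to be read against these shares. At least 2-fold differences were called for 1454 genes (12.9%), 921 higher (8.18%) and 533 lower (4.73%) in oeWDR76/Erastin. The median difference over all genes was 0.083, and it was 0.007 with median-ratio scaling, -0.02 with quantile normalization and -0.031 after the correction for GC content described next, so signs of differences of about this size depend on the scaling. Levels of the 2 groups did not overlap for 9947 genes (88.3%). The difference followed the GC content of the transcripts. Its median was -0.29 in the 1124 genes of lowest GC content, 31.8% to 38.8%, and 0.57 in the 1124 of highest, 61.9% to 74.1%. Relative to each gene's mean over all 16 libraries, levels had a slope of 0.19 log2 for each 10% of GC content in both oeWDR76/Erastin libraries and -0.14 in both siDCAF8/Erastin libraries. GC content and transcript length together held 27.7% of the variance of the difference across genes. After a fit that removed both, 8262 genes were called (73.5%), 3878 higher (34.5%) and 4384 lower (39.0%), 814 were past 2-fold (7.25%), 463 higher (4.12%) and 351 lower (3.12%), and 605 of the 1450 past 2-fold before it with a GC value remained so in the same direction. Since every library with WDR76 overexpressed shows the trend, a technical trend and an effect of WDR76 cannot be told apart. Corrected values are printed beside only some of the values they change. Others changed too, such as ISG15 (6.24 to 5.38), SLC7A11 (-2.23 to -1.56) and CA9 (3.61 to 2.96). IREB2 (-1.42 to -0.95) and ACSL4 (-1.34 to -0.98) fell under 2-fold with the correction.

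**Figure D1:**
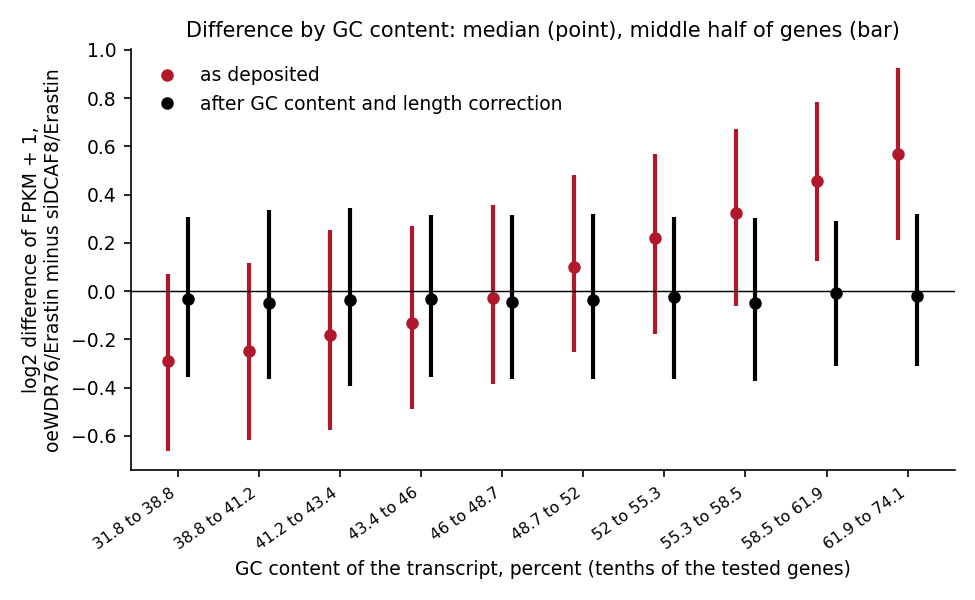
Log2 difference of FPKM plus 1, oeWDR76/Erastin minus siDCAF8/Erastin (vertical axis), over 10 equal bins of the tested genes ordered by GC content of the transcript in percent (horizontal axis). Points are medians and bars interquartile ranges, as deposited (red) and after the GC content and length correction (black). The red medians run from -0.29 in the lowest bin to 0.57 in the highest and the black medians lie between -0.05 and -0.01.

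Interferon-stimulated genes made the widest gap between the groups. All 32 tested members of the effector list were higher in oeWDR76/Erastin and 27 of them by at least 2-fold, with a median of 3.19 against 0.083 over all genes, and with the correction all 32 stayed higher at a median of 2.80. IFI6, a mitochondrial protein that resists cell death and viral replication, had 1053 and 1102 FPKM in oeWDR76/Erastin cells, against 5.42 and 6.01 FPKM in siDCAF8/Erastin cells, a difference of 7.33 ± 0.09 (adjusted p = 3.02e-19). ISG15, a ubiquitin-like modifier attached to proteins during the antiviral response, had 830.0 and 837 FPKM in oeWDR76/Erastin cells, against 10.9 and 9.30 FPKM in siDCAF8/Erastin cells (6.24 ± 0.09, adjusted p = 1.86e-18). In both, the lower of the 2 oeWDR76/Erastin libraries lay far above the higher siDCAF8/Erastin library. IFI44, whose promoter is shown above, had 67.4 and 68.7 FPKM with WDR76 overexpressed and 0.27 and 0.13 FPKM with DCAF8 depleted (5.85). The RNA-binding IFIT proteins block translation of foreign RNA. IFIT1 had 147 and 144 FPKM in oeWDR76/Erastin and 3.11 and 2.98 FPKM in siDCAF8/Erastin (5.18). IFIT3 had 193 and 192 FPKM in oeWDR76/Erastin and 5.01 and 4.54 FPKM in siDCAF8/Erastin (5.07), and IFIT2 differed by 4.75. The oligoadenylate synthetases activate RNase L on double-stranded RNA. OAS1 had 108 and 105 FPKM in oeWDR76/Erastin and 6.96 and 6.86 FPKM in siDCAF8/Erastin (3.76), and OAS2 differed by 3.98. Their relative OASL, which supports RIG-I, had 137 and 128 FPKM in oeWDR76/Erastin and 1.26 and 1.69 FPKM in siDCAF8/Erastin (5.76). The dynamin-like GTPases MX1 and MX2 trap viral capsids. MX1 had 128 and 122 FPKM in oeWDR76/Erastin cells, against 6.60 and 6.32 FPKM in siDCAF8/Erastin cells (4.08), and MX2 had 29 and 29.4 FPKM in oeWDR76/Erastin cells, against 0.04 and 0.04 FPKM in siDCAF8/Erastin cells (4.86). RSAD2, or viperin, an enzyme that makes a chain-terminating nucleotide, had 22.0 and 21.5 FPKM with WDR76 overexpressed and 0.32 and 0.27 FPKM with DCAF8 depleted (4.13). The smallest differences of the list were those of the proapoptotic XAF1 (0.47) and of IFIT5 (0.56). The level filter was a mean over all 16 libraries. Members near 0 in siDCAF8/Erastin, such as MX2, passed it through libraries where they were high, oeWDR76/Erastin included. The counts and median above can lean toward higher members through this filter. Another 4 members fell under the level filter, and of these IFI44L had 1.96 and 1.35 FPKM in oeWDR76/Erastin cells, against 0.01 and 0 FPKM in siDCAF8/Erastin cells, while HERC5, the ligase that attaches ISG15, had 2.81 and 2.61 FPKM in oeWDR76/Erastin cells, against 0.38 and 0.36 FPKM in siDCAF8/Erastin cells.

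**Figure D2:**
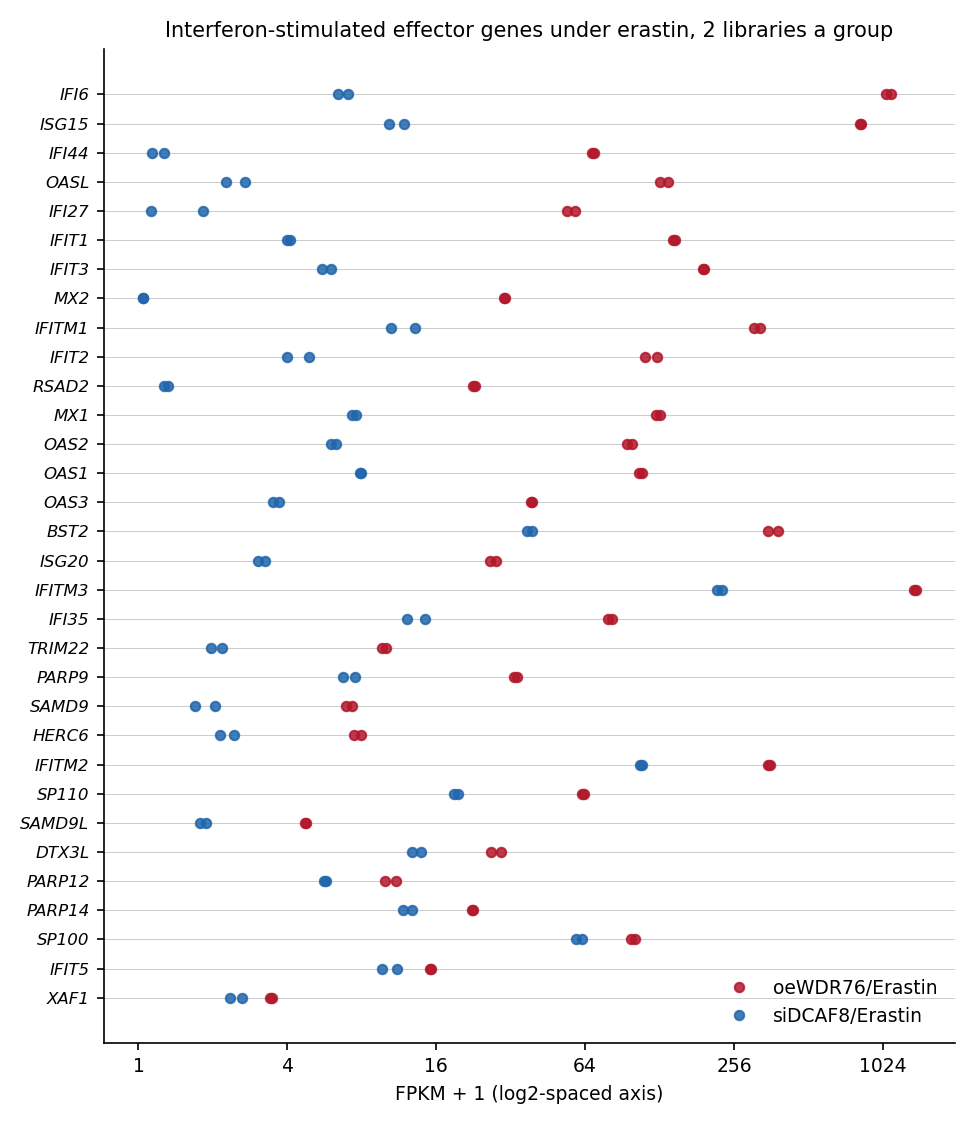
FPKM plus 1 on a log axis (horizontal) for the 32 tested interferon-stimulated effector genes, ordered by difference, with 1 point for each of the 2 oeWDR76/Erastin (red) and 2 siDCAF8/Erastin (blue) libraries. The red points lie right of the blue points for every gene, from IFI6 at 7.33 log2 to XAF1 at 0.47. IFI27 is listed on an alternate contig and IFITM1, IFITM2 and IFITM3 are close paralogs, so their values are uncertain.

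The interferons themselves were looked up after the effectors were seen. IFNB1, the type I interferon that non-immune cells secrete, had 2.59 and 2.53 FPKM in oeWDR76/Erastin cells, against 0 and 0 FPKM in siDCAF8/Erastin cells, and was under the level filter over the 16 libraries. IFNL1, a type III interferon, had 4.42 and 3.46 FPKM in oeWDR76/Erastin cells, against 0 and 0 FPKM in siDCAF8/Erastin cells. Both were listed at 0 in each siDCAF8/Erastin library, so no fold is given. IFNL1 passed the level filter, with a mean of 1.31 FPKM over the 16 libraries, but its fitted difference is not given here. IFNA1 and IFNK were listed at 0 in all 4 libraries, and IFNE, a type I interferon of epithelia, had 0.24 and 0.51 FPKM in oeWDR76/Erastin cells, against 0.70 and 0.63 FPKM in siDCAF8/Erastin cells. Without erastin IFNB1 and IFNL1 were again found mainly in overexpressing cells, with IFNB1 at 3.71 and 2.90 FPKM in oeWDR76 and 0 and 0 FPKM in siDCAF8 and IFNL1 at 7.94 and 5.04 FPKM in oeWDR76 and 0 and 0.07 FPKM in siDCAF8.

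Sensors and signal carriers upstream of these genes moved less uniformly. Of 21 tested genes of RNA sensing and interferon signalling 14 were higher, 6 of them by at least 2-fold, and 5 were lower, with a median of 0.49. IFIH1, or MDA5, which senses long double-stranded RNA in the cytosol, had 25.1 and 22.3 FPKM in oeWDR76/Erastin and 1.25 and 1.23 FPKM in siDCAF8/Erastin (3.46). DDX58, or RIG-I, which senses RNA with a free triphosphate end, had 28.6 and 27.4 FPKM in oeWDR76/Erastin and 3.20 and 3.31 FPKM in siDCAF8/Erastin (2.77). USP18, which removes ISG15 and restrains the receptor, had 23.3 and 24.4 FPKM in oeWDR76/Erastin cells, against 0.20 and 0.32 FPKM in siDCAF8/Erastin cells (4.30). It passed the level filter through libraries where it was high, oeWDR76/Erastin included, so the counts here can lean toward higher members. IRF9, the DNA-binding partner of STAT2, had 45.7 and 46.2 FPKM in oeWDR76/Erastin and 6.48 and 5.56 FPKM in siDCAF8/Erastin (2.75), whereas STAT2 differed by only 0.39. The adaptor MAVS (-0.67, -0.18 corrected), the kinase TBK1 (-0.72) and the receptor kinase JAK1 (-0.98) were lower. IRF7, an interferon-inducible factor under the filter, went against the list with 0.06 and 0 FPKM in oeWDR76/Erastin cells, against 0.58 and 1.0 FPKM in siDCAF8/Erastin cells. GAAANNGAAA was found in 2 of 14 promoters (14.3%) of this list.

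Chemokine genes and feedback inhibitors of NF-kB shared the direction. Of 18 tested members 14 were higher, 10 by at least 2-fold, and 3 were lower, with a median of 1.14. CXCL10, a ligand that draws T cells through CXCR3, had 6.67 and 7.19 FPKM in oeWDR76/Erastin cells, against 0 and 0 FPKM in siDCAF8/Erastin cells. CXCL11, another ligand of that receptor, had 8.45 and 9.15 FPKM in oeWDR76/Erastin cells, against 0 and 0 FPKM in siDCAF8/Erastin cells. Both were listed at 0 in the depleted cells, so no fold is given. They passed the level filter through libraries where they were high, oeWDR76/Erastin included. The count and median of the list can lean toward higher members for that reason. CCL5, which draws T cells and monocytes, had 123 and 108 FPKM with WDR76 overexpressed and 17.7 and 14.4 FPKM with DCAF8 depleted (2.77). The cytokine IL6 had 9.92 and 12.9 FPKM with WDR76 overexpressed and 1.53 and 1.73 FPKM with DCAF8 depleted (2.23). NFKBIA, the inhibitor that NF-kB induces, had 74.4 and 71.2 FPKM in oeWDR76/Erastin cells, against 13.0 and 10.98 FPKM in siDCAF8/Erastin cells (2.51 ± 0.08, adjusted p = 4.76e-14). The deubiquitinase TNFAIP3, or A20, which ends NF-kB signalling, had 9.07 and 9.55 FPKM in oeWDR76/Erastin cells, against 1.47 and 1.45 FPKM in siDCAF8/Erastin cells (2.07). Genes of MHC class I antigen presentation were higher in 11 of 14 cases and lower in 2, with a median of 0.85 and 0.49 after correction. The immunoproteasome subunit PSMB9 had 38.9 and 37.0 FPKM in oeWDR76/Erastin and 8.44 and 8.46 FPKM in siDCAF8/Erastin (2.04). The peptide pump TAP1 had 53.1 and 53.6 FPKM in oeWDR76/Erastin and 18.4 and 20.1 FPKM in siDCAF8/Erastin (1.43). The light chain B2M, among the most abundant transcripts, stood at 1295 and 1339 FPKM in oeWDR76/Erastin and 659 and 697 FPKM in siDCAF8/Erastin (0.96). The trimming peptidase ERAP1 was lower (-1.05, -0.68 corrected).

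Genes of the cell cycle were mostly higher in oeWDR76/Erastin than in siDCAF8/Erastin. Of 35 genes of G1/S and DNA replication 31 were higher, 18 by at least 2-fold, and 1 was lower, at a median of 1.0 (0.81 corrected). Of 34 genes of mitosis and G2/M 27 were higher, 16 by at least 2-fold, and 3 were lower, at a median of 0.87 (0.92 corrected). TK1, the thymidine kinase of S phase, had 83.6 and 81.1 FPKM in oeWDR76/Erastin cells, against 16.2 and 15.6 FPKM in siDCAF8/Erastin cells, a difference of 2.299 ± 0.07 (adjusted p = 2.46e-14). E2F1, the factor that drives S-phase genes, had 15.7 and 16.6 FPKM in oeWDR76/Erastin and 4.18 and 3.95 FPKM in siDCAF8/Erastin (1.76). The replication licensing factor CDT1 had 34.9 and 35.8 FPKM in oeWDR76/Erastin and 10.4 and 11.02 FPKM in siDCAF8/Erastin (1.64, 1.06 corrected). PLK1, the kinase that drives entry into mitosis, had 89.7 and 89.9 FPKM with WDR76 overexpressed and 22.7 and 26.3 FPKM with DCAF8 depleted (1.84 ± 0.09, adjusted p = 6.74e-12). AURKB, the kinase that corrects spindle attachments, had 122 and 129 FPKM with WDR76 overexpressed and 27.9 and 33.5 FPKM with DCAF8 depleted (2.001). CDC20, the activator of the anaphase-promoting complex, had 139 and 147 FPKM in oeWDR76/Erastin cells, against 31.2 and 37.4 FPKM in siDCAF8/Erastin cells (2.04). TUBG1, the gamma-tubulin that nucleates spindle microtubules, had 76.1 and 73.2 FPKM in oeWDR76/Erastin cells, against 12.2 and 13.7 FPKM in siDCAF8/Erastin cells (2.44). Levels in the 2 groups did not overlap for any of these 7 genes, as for 88.3% of all tested genes. Exceptions in direction were cyclin D1, CCND1 (-0.56), the topoisomerase TOP2A (-0.46, -0.07 corrected and then not called, adjusted p = 0.298), and the long kinetochore proteins CENPF (-0.40, 0.28 corrected) and CENPE (-0.22, 0.40 corrected), which turned to higher with the correction. In bulk RNA, more cells in a phase and more RNA per cell cannot be told apart. H2AFX, the histone variant phosphorylated at DNA breaks, had 69.2 and 69.3 FPKM in oeWDR76/Erastin and 18.8 and 16.9 FPKM in siDCAF8/Erastin (1.90, 1.14 corrected), and the replication-independent H2AFZ differed by 1.30.

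The largest fall was in iron uptake. TFRC (chr3:196049284-196082161), the transferrin receptor that brings iron into cells and marks ferroptosis-prone ones, had 20.4 and 26.6 FPKM in oeWDR76/Erastin cells, against 349 and 359 FPKM in siDCAF8/Erastin cells, a difference of -3.87 ± 0.11 (adjusted p = 2.03e-14). The level in overexpressing cells was a small fraction of that in depleted cells, in both libraries of each group. IREB2, the RNA-binding protein that stabilises TFRC mRNA when iron is short, was lower as well, with 7.0 and 7.51 FPKM in oeWDR76/Erastin cells, against 20.9 and 21.2 FPKM in siDCAF8/Erastin cells (-1.42). The ferrous iron transporter SLC11A2 had 11.6 and 11.5 FPKM in oeWDR76/Erastin and 20.9 and 20.8 FPKM in siDCAF8/Erastin (-0.80). Over the whole list of iron uptake, storage and heme breakdown 10 of 20 genes were higher and 7 lower at a median of 0.09, which turned to 5 and 13 at -0.23 after the correction. Ferritin subunits differed little, FTH1 by 0.27 (-0.15 corrected and -0.035 with quantile normalization) and FTL by 0.46 (-0.19 corrected), and both turned sign with the correction. BLVRB, a biliverdin reductase that acts after heme breakdown, had 75.7 and 78.9 FPKM in oeWDR76/Erastin and 25.9 and 25.9 FPKM in siDCAF8/Erastin (1.54, 0.75 corrected). HMOX1, the heme oxygenase that frees iron, had 20.3 and 24.1 FPKM in oeWDR76/Erastin cells, against 60.0 and 27.8 FPKM in siDCAF8/Erastin cells, and its difference of -0.86 (adjusted p = 0.0145, -1.45 corrected) rested on 2 depleted libraries that stood far apart from each other. Without siDCAF8/Erastin replicate 1 it was -0.32 (adjusted p = 0.331), and the call was also lost without oeWDR76/Erastin replicate 1 (-0.74, adjusted p = 0.0832) and when low genes were not filtered (adjusted p = 0.0709).

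Among genes of cystine import and cysteine supply, SLC7A11, CTH and CBS were lower in oeWDR76/Erastin than in siDCAF8/Erastin. SLC7A11 (chr4:138164094-138242349), the transport subunit of system xc- and the target of erastin, had 1.66 and 1.88 FPKM in oeWDR76/Erastin cells, against 15.4 and 9.32 FPKM in siDCAF8/Erastin cells, a difference of -2.23 ± 0.16 (adjusted p = 1.29e-09). The higher overexpressing library was below the lower depleted one, although the depleted libraries differed between themselves. CBS and CTH make cysteine from homocysteine in successive steps. CTH had 7.38 and 7.03 FPKM with WDR76 overexpressed and 21.4 and 16.6 FPKM with DCAF8 depleted (-1.28 ± 0.11, adjusted p = 7.89e-09). CBS had 11.6 and 10.5 FPKM with WDR76 overexpressed and 24.8 and 18.8 FPKM with DCAF8 depleted (-0.92, adjusted p = 4.22e-07, -1.38 corrected). The partner subunit SLC3A2 was higher (0.56), but 0.10 after the correction. SLC38A2, a neutral amino acid transporter, had 39.4 and 38.5 FPKM in oeWDR76/Erastin and 117 and 116 FPKM in siDCAF8/Erastin (-1.56). CHAC1, which degrades glutathione, went the other way with 19.0 and 19.4 FPKM in oeWDR76/Erastin cells, against 5.35 and 5.52 FPKM in siDCAF8/Erastin cells (1.65, 0.99 corrected). In glutathione synthesis the ligase subunits GCLC (-0.54) and GCLM (-0.82, -0.48 corrected) were lower, and the glutathione reductase GSR (0.77) was higher. Of 14 tested genes of the list 6 were higher and 7 lower at a median of -0.34, and 3 and 8 at -0.45 after the correction.

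Of 20 ferroptosis suppressors that act beside or after glutathione 2 were higher and 0 lower by at least 2-fold, and 1 and 0 after the correction. GPX4 had 215 and 212 FPKM in oeWDR76/Erastin cells, against 155 and 148 FPKM in siDCAF8/Erastin cells, a difference of 0.49 (adjusted p = 1.28e-07) that turned to -0.31 after the correction, so its direction depends on the treatment of GC content. AIFM2, or FSP1, which reduces coenzyme Q at the plasma membrane, had 16.1 and 14.8 FPKM in oeWDR76/Erastin cells, against 7.49 and 7.81 FPKM in siDCAF8/Erastin cells (0.93, 0.64 corrected). COQ2, an enzyme of coenzyme Q synthesis, differed by 0.85 (0.56 corrected). The phospholipid-remodelling MBOAT1 had 5.20 and 4.94 FPKM in oeWDR76/Erastin and 1.16 and 1.29 FPKM in siDCAF8/Erastin (1.45). DHODH, the mitochondrial suppressor, was not called (-0.09, adjusted p = 0.274) but was called lower after the correction (-0.37, adjusted p = 0.000207). Of 20 genes 11 were higher and 5 lower at a median of 0.27, and 8 and 7 at -0.04 after the correction. Drivers were split. ACSL4, which loads polyunsaturated fatty acids into phospholipids and is needed for ferroptosis, had 18.9 and 19.6 FPKM in oeWDR76/Erastin cells, against 48.3 and 52.1 FPKM in siDCAF8/Erastin cells (-1.34 ± 0.06, adjusted p = 2.66e-12). LPCAT1, a lysophospholipid acyltransferase, had 21.9 and 21.3 FPKM in oeWDR76/Erastin cells, against 4.37 and 5.12 FPKM in siDCAF8/Erastin cells (1.98). TMEM189, which makes plasmalogens, had 14.7 and 13.2 FPKM in oeWDR76/Erastin and 4.41 and 4.24 FPKM in siDCAF8/Erastin (1.49). ACSL3, which loads monounsaturated fatty acids instead, differed by -0.64 (-0.42 corrected). Of 11 tested drivers 4 were higher and 4 lower at a median of 0.11, and 3 and 3 at -0.03 after the correction. SCD, the desaturase that makes monounsaturated fat, had 113 and 119 FPKM with WDR76 overexpressed and 272 and 330.5 FPKM with DCAF8 depleted (-1.37). ACACA, the first enzyme of fatty acid synthesis, differed by -1.09 (-0.55 corrected). TECR, the reductase that ends each round of fatty acid elongation, was higher, with 106 and 103 FPKM in oeWDR76/Erastin and 26.3 and 27.9 FPKM in siDCAF8/Erastin (1.91, 1.20 corrected). Of 16 tested genes of fatty acid synthesis 5 were higher and 7 lower, and 3 and 8 after the correction.

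The targets of NRF2, the factor that answers oxidants, had no common direction. Of 30 tested genes 18 were higher and 9 lower at a median of 0.38, and 9 and 12 at -0.06 after the correction. TXNRD1, the cytosolic thioredoxin reductase, had 77.7 and 70.9 FPKM in oeWDR76/Erastin cells, against 198 and 169 FPKM in siDCAF8/Erastin cells (-1.29 ± 0.09, adjusted p = 1.22e-09). The quinone reductase NQO1 was higher (0.60), as was the pentose phosphate enzyme TKT, with 389.6 and 375 FPKM in oeWDR76/Erastin and 215 and 224 FPKM in siDCAF8/Erastin (0.80, 0.41 corrected). NRF2 itself, NFE2L2, was not called (-0.03, adjusted p = 0.68).

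**Figure D3:**
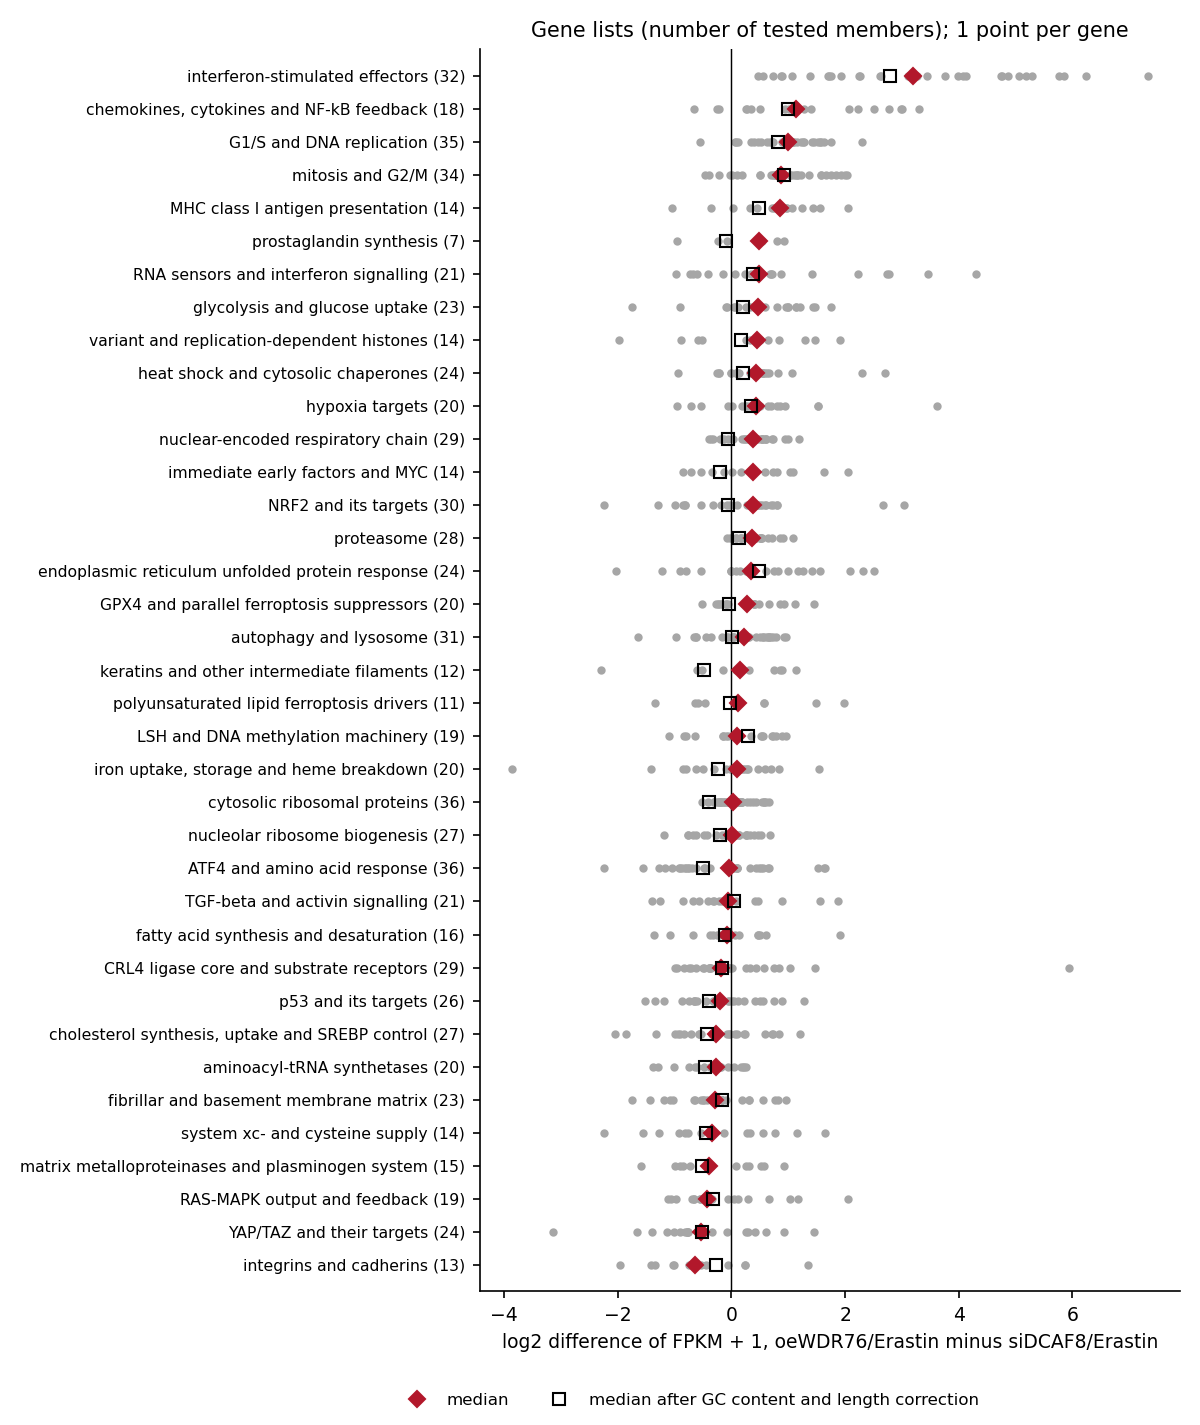
Log2 difference of FPKM plus 1, oeWDR76/Erastin minus siDCAF8/Erastin (horizontal axis), for the tested members of 37 gene lists (rows, number tested in parentheses). Grey points are genes, red diamonds list medians and open squares medians after the GC content and length correction. Interferon-stimulated effectors lie farthest right at 3.19, integrins and cadherins farthest left at -0.65, and the cytosolic ribosomal proteins move from 0.03 to -0.39 with the correction.

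YAP targets and genes of integrins, cadherins and matrix were lower more often than higher in oeWDR76/Erastin, as were 3 named genes of growth factor signalling, EGFR and ROR1, chosen for the size of their fall, and HBEGF. EGFR, the epidermal growth factor receptor, had 16.6 and 14.5 FPKM in oeWDR76/Erastin cells, against 71.0 and 78.2 FPKM in siDCAF8/Erastin cells, a difference of -2.19 ± 0.09 (adjusted p = 1.11e-12). ROR1, a receptor tyrosine kinase of WNT signalling, had 1.88 and 1.82 FPKM in oeWDR76/Erastin and 12.2 and 11.98 FPKM in siDCAF8/Erastin (-2.20), and the EGFR ligand HBEGF differed by -1.06. ANKRD1, a muscle ankyrin protein and a direct target of YAP, had 99.2 and 102 FPKM in oeWDR76/Erastin cells, against 875 and 905 FPKM in siDCAF8/Erastin cells (-3.13 ± 0.08, adjusted p = 4.13e-15), which was the second largest fall among the named genes. Of 24 genes of the YAP pathway and its targets 17 were lower, 5 by at least 2-fold, and 6 were higher, at a median of -0.54 (-0.52 corrected). They included the matricellular CTGF (-1.13) and CYR61 (-0.77), YAP1 itself with 27.8 and 26.2 FPKM in oeWDR76/Erastin and 50.6 and 52.7 FPKM in siDCAF8/Erastin (-0.91, -0.61 corrected), and the phosphatase PTPN14 (-1.66, -0.92 corrected). The DNA-binding partners moved apart, TEAD1 at -0.76 (-0.23 corrected) and TEAD2 at 1.46. Of 13 integrins and cadherins 9 were lower and 3 higher at a median of -0.65 (-0.27 corrected). Over all tested genes 33.7% were called lower and 43.7% higher. The vitronectin receptor chain ITGAV had 10.9 and 10.02 FPKM in oeWDR76/Erastin cells, against 44.8 and 42.1 FPKM in siDCAF8/Erastin cells (-1.96). The laminin receptor chain ITGA6 had 23.1 and 22.2 FPKM in oeWDR76/Erastin and 60.2 and 63.9 FPKM in siDCAF8/Erastin (-1.41). The common chain ITGB1 had 236 and 236 FPKM in oeWDR76/Erastin and 475 and 479.8 FPKM in siDCAF8/Erastin (-1.01). N-cadherin, CDH2, differed by -1.03. Their matrix ligand fibronectin, FN1, had 119 and 116 FPKM in oeWDR76/Erastin cells, against 376 and 418 FPKM in siDCAF8/Erastin cells (-1.74 ± 0.09, adjusted p = 1.92e-11). Of 23 tested matrix genes 14 were lower and 7 higher at a median of -0.29 (-0.16 corrected), the lower ones including the fibrillar collagen COL5A1, with 3.99 and 4.12 FPKM in oeWDR76/Erastin and 12.9 and 12.4 FPKM in siDCAF8/Erastin (-1.44). Of 15 tested metalloproteinases and plasminogen genes 9 were lower and 4 higher at -0.39, with the gelatinase MMP2 at 17.7 and 16.8 FPKM in oeWDR76/Erastin and 35.7 and 34.99 FPKM in siDCAF8/Erastin (-0.99) and the urokinase receptor PLAUR higher (0.92, 0.38 corrected).

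Growth signals outside EGFR were divided, beside 43.7% of all tested genes called higher and 33.7% lower. Of 19 tested genes of RAS-MAPK output and feedback 11 were lower and 5 higher at a median of -0.42, and 10 and 8 at -0.32 after the correction. NRAS, the oncogene mutated in HT-1080 cells, had 17.0 and 17.4 FPKM in oeWDR76/Erastin cells, against 35.6 and 34.2 FPKM in siDCAF8/Erastin cells (-0.98), and the feedback inhibitor SPRY4 differed by -1.12. Of 21 tested genes of TGF-beta and activin signalling 5 were higher and 8 lower at a median of -0.06, and 7 and 6 at 0.05 after the correction. The ligands went opposite ways, TGFB1 at 82.5 and 79.0 FPKM in oeWDR76/Erastin and 25.6 and 27.9 FPKM in siDCAF8/Erastin (1.56, 1.02 corrected) and TGFB2 at 4.5 and 4.62 FPKM in oeWDR76/Erastin and 12.9 and 14.4 FPKM in siDCAF8/Erastin (-1.40). ID3, an inhibitor of helix-loop-helix factors, had 10.9 and 11.7 FPKM in oeWDR76/Erastin and 2.40 and 2.31 FPKM in siDCAF8/Erastin (1.87). Among 14 tested immediate early genes 7 were higher and 4 lower at a median of 0.38, which turned to 6 and 7 at -0.20 after the correction, with the AP-1 subunits FOSL1 (1.02, 0.41 corrected) and JUNB (1.09, 0.38 corrected) higher and FOSL2 (-0.85) lower. Among 26 p53 genes and targets 13 were lower and 7 higher at -0.21 (-0.39 corrected). The antiproliferative BTG2 had 12.4 and 11.6 FPKM in oeWDR76/Erastin and 40.9 and 32.3 FPKM in siDCAF8/Erastin (-1.52) and ZMAT3, which binds RNA, had 9.18 and 9.25 FPKM in oeWDR76/Erastin and 25.2 and 24.8 FPKM in siDCAF8/Erastin (-1.35, -0.72 corrected). PMAIP1, or NOXA, a BH3-only killer protein, was higher, with 94.8 and 88.8 FPKM in oeWDR76/Erastin and 37.8 and 36.9 FPKM in siDCAF8/Erastin (1.27).

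Genes of sterol synthesis and its control were lower more often than higher. HMGCS1, which makes HMG-CoA, an early sterol precursor, had 12.2 and 12.3 FPKM in oeWDR76/Erastin cells, against 43.0 and 66.3 FPKM in siDCAF8/Erastin cells (-2.04, adjusted p = 2.14e-10). The lower depleted library was still far above the higher overexpressing one. SREBF2, the factor that drives the pathway, had 51.2 and 48.7 FPKM in oeWDR76/Erastin and 92.6 and 100.3 FPKM in siDCAF8/Erastin (-0.94). EBP, a sterol isomerase, went the other way (1.21, 0.68 corrected). Of 27 genes 15 were lower and 7 higher at a median of -0.28, and 19 and 5 at -0.43 after the correction. ABCA1, which exports cholesterol, was also lower, with 4.01 and 4.02 FPKM in oeWDR76/Erastin and 19.4 and 18.9 FPKM in siDCAF8/Erastin (-2.01).

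Chaperones of the endoplasmic reticulum were higher. SDF2L1, a partner of the Hsp70 BiP, had 57.0 and 67.8 FPKM in oeWDR76/Erastin cells, against 9.62 and 10.7 FPKM in siDCAF8/Erastin cells (2.50 ± 0.13, adjusted p = 2.03e-11, 1.65 corrected). MANF, a nucleotide exchange inhibitor of BiP that is also secreted, had 225 and 247 FPKM in oeWDR76/Erastin and 44.1 and 49.3 FPKM in siDCAF8/Erastin (2.31), and CRELD2 differed by 2.08. The calcium-binding lectin CALR had 1180.3 and 1223 FPKM in oeWDR76/Erastin and 403 and 416 FPKM in siDCAF8/Erastin (1.55). Of 24 genes of the unfolded protein response 15 were higher, 7 by at least 2-fold, and 5 were lower, at a median of 0.34 (0.48 corrected). The sensor IRE1, ERN1, was among the largest falls, with 0.94 and 0.82 FPKM in oeWDR76/Erastin cells, against 6.43 and 6.84 FPKM in siDCAF8/Erastin cells (-2.02 ± 0.10, adjusted p = 1.05e-11). Its splicing target XBP1 was lower too (-0.54, -0.86 corrected). Glycolytic genes were higher in 16 of 23 cases and lower in 2, at a median of 0.46, and in 14 and 6 cases at 0.20 after the correction. The aldolase ALDOA had 1158 and 1136 FPKM in oeWDR76/Erastin and 424 and 423 FPKM in siDCAF8/Erastin (1.43, 0.90 corrected). TXNIP, a brake on glucose uptake that sugar itself induces, went the other way with 21.4 and 19.7 FPKM in oeWDR76/Erastin and 70.8 and 71.2 FPKM in siDCAF8/Erastin (-1.74). CA9, the carbonic anhydrase induced by hypoxia, had 12.4 and 14.8 FPKM in oeWDR76/Erastin cells, against 0.15 and 0.23 FPKM in siDCAF8/Erastin cells (3.61 ± 0.13, adjusted p = 2.76e-13), while 15 of 20 tested hypoxia targets were higher and 3 lower at a median of 0.43. STC1, a secreted glycoprotein, had 101 and 106 FPKM in oeWDR76/Erastin and 33.2 and 37.2 FPKM in siDCAF8/Erastin (1.53). DDIT4, an inhibitor of mTORC1, had 154 and 147 FPKM in oeWDR76/Erastin and 51.8 and 51.9 FPKM in siDCAF8/Erastin (1.52, 0.95 corrected), and the mitophagy receptor BNIP3L was lower (-0.72).

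Large differences also lay outside the lists. CD53, a tetraspanin known from leukocytes, had 23.0 and 24.98 FPKM in oeWDR76/Erastin cells, against 0.79 and 0.64 FPKM in siDCAF8/Erastin cells (3.87), and the leukocyte marker sums are given above. TMTC1, a mannosyltransferase of the endoplasmic reticulum, had 18.0 and 17.2 FPKM in oeWDR76/Erastin and 0.35 and 0.44 FPKM in siDCAF8/Erastin (3.74). Among falls, the urea transporter SLC14A1 had 0.21 and 0.17 FPKM in oeWDR76/Erastin cells, against 8.65 and 9.30 FPKM in siDCAF8/Erastin cells (-3.07). HRNR and FLG encode epidermal filament-binding proteins from neighbouring genes on chromosome 1. HRNR had 0.37 and 0.39 FPKM in oeWDR76/Erastin and 8.34 and 7.52 FPKM in siDCAF8/Erastin (-2.69), and FLG had 0.26 and 0.23 FPKM in oeWDR76/Erastin and 5.61 and 5.26 FPKM in siDCAF8/Erastin (-2.37). The chromatin factor ASXL2 had 2.46 and 2.15 FPKM with WDR76 overexpressed and 15.2 and 15.1 FPKM with DCAF8 depleted (-2.29). CEMIP, which depolymerises hyaluronan, had 4.95 and 4.60 FPKM with WDR76 overexpressed and 28.03 and 25.8 FPKM with DCAF8 depleted (-2.27). The keratin KRT80 had 2.68 and 2.45 FPKM with WDR76 overexpressed and 18.9 and 14.3 FPKM with DCAF8 depleted (-2.29). PHLDB2, which anchors microtubules at adhesions, differed by -2.15, the exchange factor DOCK9 by -2.04 and the C-mannosyltransferase-like DPY19L3 by -2.09. These genes were picked among those whose 2 groups did not overlap, which held for 88.3% of all tested genes.

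The same 2 manipulations without erastin gave much of the same contrast from 4 other libraries, with 8220 genes called (73.0%) and 938 of them past 2-fold (8.33%). Of the 1454 genes past 2-fold with erastin 1447 were called in the same direction without it and 796 were past 2-fold in both. Across the 11260 genes the differences with and without erastin had a Pearson r of 0.936, a description across genes that are not independent. The interferon effector median was 3.15 without erastin. Differences were larger with erastin, at a median absolute size of 0.43 against 0.36 without it. Their slope on GC content was larger as well, at 0.32 log2 for each 10% with erastin and 0.22 without. The test of the difference between treatments, the difference with erastin minus that without, called 1583 genes (14.1%), 1014 positive (9.01%) and 569 negative (5.05%). Leaving out 1 library lowered this count by more than 1.5-fold for oeWDR76 replicate 1 (728), oeWDR76/Erastin replicates 1 (936) and 2 (957) and siDCAF8 replicate 1 (1034). Without siDCAF8/Erastin replicate 1 the negative count was 351. With the GC content and length correction the test called 771 genes positive and 637 negative. The counts were 820 and 720 with median-ratio scaling and 862 and 742 with quantile normalization. Of the 32 interferon effectors 9 were called negative and 2 positive, so the difference was smaller with erastin for more members than it was larger.

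Genes of the amino acid response were called negative in that test more often than genes at large. Of 36 tested genes of ATF4 and the amino acid response 27 were called negative and 0 positive, with a median of -0.66, and 29 were called negative after the correction, against 5.67% of all genes. ASNS, the asparagine synthetase, had 65.3 and 65.6 FPKM in oeWDR76/Erastin cells, against 78.2 and 54.6 FPKM in siDCAF8/Erastin cells, but 97.4 and 90.6 FPKM in oeWDR76 and 30.4 and 26.6 FPKM in siDCAF8 without the drug. Its difference was thus 0.00 with erastin (adjusted p = 0.997, -0.15 corrected and again not called) and 1.69 without, a change of -1.69 ± 0.18 (adjusted p = 5.81e-05). CTH, at 9.97 and 9.61 FPKM in oeWDR76 and 10.3 and 8.15 FPKM in siDCAF8 without erastin, changed by -1.36 ± 0.15 (adjusted p = 6.31e-05), and CBS changed by -1.20 ± 0.15. SLC7A11 stood at 2.45 and 2.76 FPKM in oeWDR76 and 6.78 and 5.22 FPKM in siDCAF8 without erastin and changed by -1.28 ± 0.23 (adjusted p = 0.00153). For SLC7A11, CTH and CBS the depleted cells had more RNA with erastin than without, and the overexpressing cells less. DDIT3, or CHOP, the death-promoting factor downstream of ATF4, had 82.9 and 81.5 FPKM in oeWDR76/Erastin cells, against 56.3 and 57.4 FPKM in siDCAF8/Erastin cells. It had 111 and 104 FPKM in oeWDR76 and 38.6 and 32.8 FPKM in siDCAF8 without erastin, a change of -1.04 (adjusted p = 7.84e-05). Its difference with erastin, 0.52, was 0.12 and not called after the correction (adjusted p = 0.262). NUPR1, a stress-induced chromatin protein, changed by -1.25 and CCND2, cyclin D2, by -1.20 (adjusted p = 0.000848 and 0.000146), while with erastin CCND2 differed by -0.67 (-0.31 corrected). With erastin NUPR1 differed by 0.32 (adjusted p = 0.0475), which turned to -0.15 and was not called after the correction (adjusted p = 0.353). ATF4 itself was not called with erastin (0.00 after rounding, adjusted p = 0.956) but was called lower after the correction (-0.49, adjusted p = 2.69e-06). Of 20 aminoacyl-tRNA synthetases, which ATF4 also raises, 12 were negative and 1 positive in this test, and with erastin 14 were lower and 4 higher at a median of -0.28, and 18 and 1 at -0.46 after the correction. EPRS had 42.7 and 42.9 FPKM in oeWDR76/Erastin and 122 and 104 FPKM in siDCAF8/Erastin (-1.38). IARS had 40.4 and 40.4 FPKM in oeWDR76/Erastin and 106 and 94.3 FPKM in siDCAF8/Erastin (-1.29), and TARS differed by -1.01. HMOX1 changed by -1.50 (adjusted p = 0.0261), a call lost when any of 6 libraries was left out and when low genes were not filtered, with adjusted p of 0.057 to 0.12 in those fits.

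**Figure D4:**
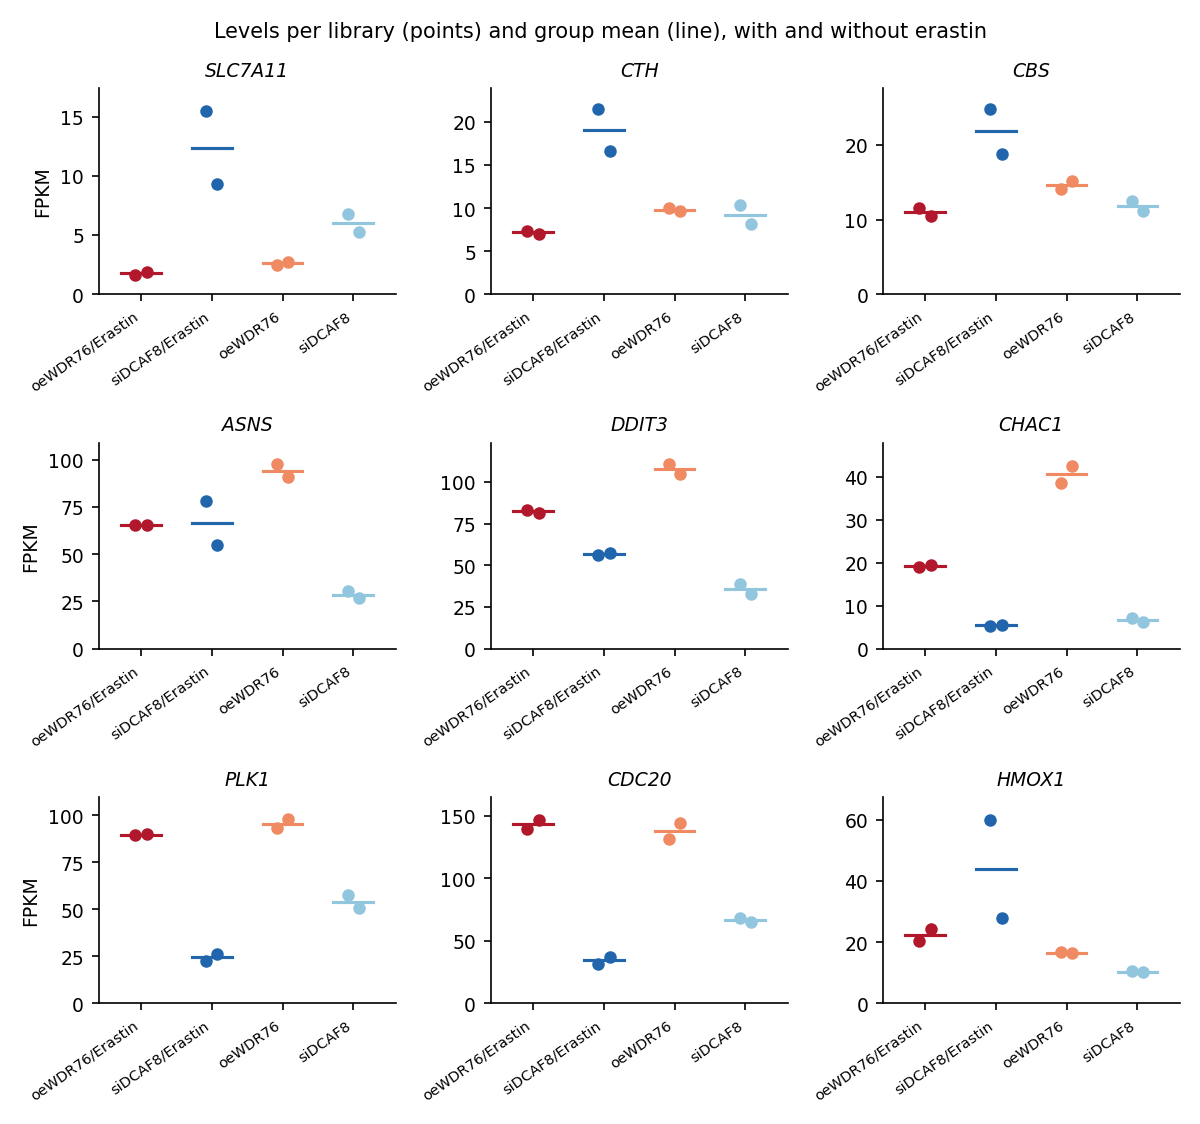
FPKM (vertical axes, from 0) of 9 genes in oeWDR76/Erastin, siDCAF8/Erastin, oeWDR76 and siDCAF8, with 1 point per library and a line at the mean of 2. SLC7A11, CTH and CBS are highest in siDCAF8/Erastin, ASNS, DDIT3 and CHAC1 are highest in oeWDR76, and PLK1 and CDC20 are lowest in siDCAF8/Erastin.

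Cell cycle genes were called positive more often than genes at large. Of the 34 mitosis genes 29 were called positive and 0 negative, with a median of 0.50, and of the 35 genes of G1/S and replication 20 were positive and 0 negative, with a median of 0.37. PLK1 had 93.4 and 97.9 FPKM in oeWDR76 and 57.4 and 50.7 FPKM in siDCAF8 without erastin, where the groups lay closer than with it, and changed by 1.02 ± 0.12 (adjusted p = 8.96e-05). CDC20 had 132 and 144 FPKM in oeWDR76 and 68.2 and 64.8 FPKM in siDCAF8 and changed by 0.99 ± 0.11 (adjusted p = 6.51e-05), and TUBG1 changed by 0.94. For all 3, levels in overexpressing cells were near each other with and without the drug, and those in depleted cells were lower with it. CA9 changed by 1.18, with 15.3 and 14.3 FPKM in oeWDR76 and 1.95 and 1.88 FPKM in siDCAF8 without erastin. SDF2L1 changed by 1.06. FPR1, the formyl peptide receptor, was not called with erastin, with 6.43 and 6.86 FPKM in oeWDR76/Erastin cells, against 7.55 and 6.19 FPKM in siDCAF8/Erastin cells (-0.04, adjusted p = 0.72), and it was called lower after the correction (-0.43, adjusted p = 0.0003). It had 6.93 and 7.89 FPKM in oeWDR76 and 17.1 and 19.6 FPKM in siDCAF8 without erastin, a change of 1.17 ± 0.13 (adjusted p = 6.51e-05). NT5DC2, a nucleotidase-like protein, changed by 0.95 and differed by 0.81 with erastin (0.27 corrected). RGS4, which ends G-protein signals, changed by 0.94 and was not called with erastin (0.14, adjusted p = 0.206), but was called higher after the correction (0.26, adjusted p = 0.0211).

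**Figure D5:**
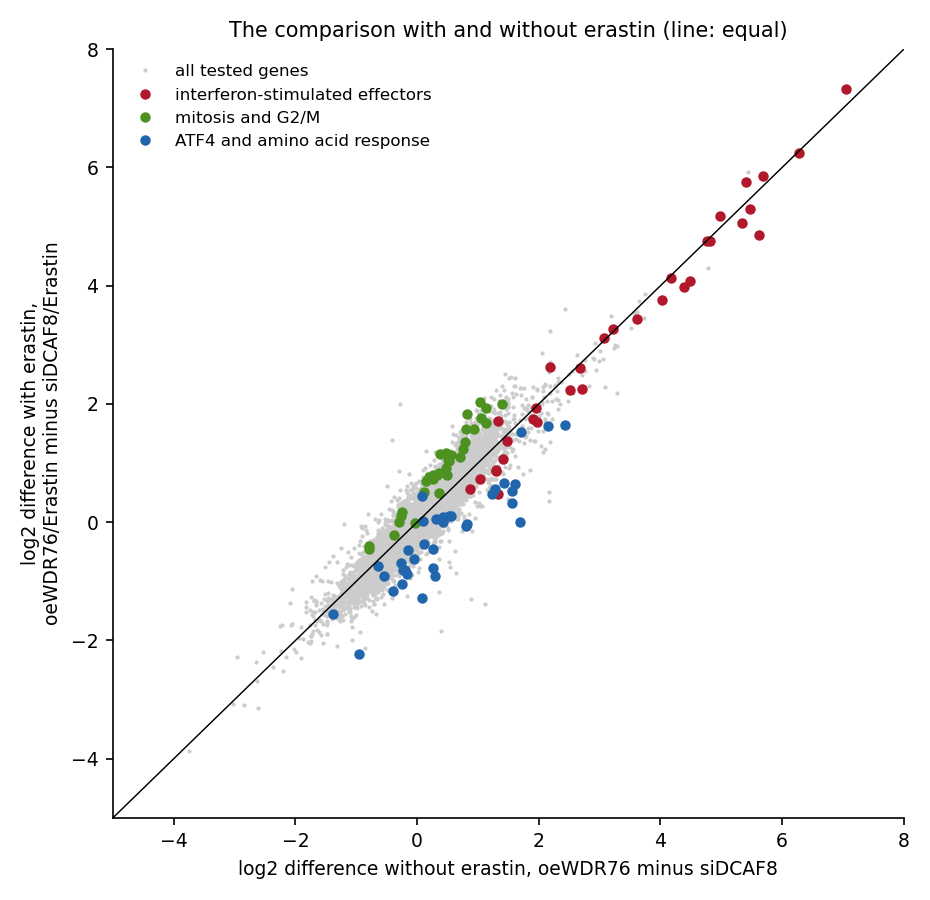
Log2 difference of FPKM plus 1 without erastin (horizontal, oeWDR76 minus siDCAF8) and with erastin (vertical, oeWDR76/Erastin minus siDCAF8/Erastin) for 11260 genes (grey), with 3 gene lists coloured and a line of equality. Interferon-stimulated effectors (red) lie near the line, 9 of 32 called below it and 2 above, mitosis genes (green) mostly above it and genes of the ATF4 and amino acid response (blue) mostly below it.

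Lists of housekeeping genes rested on the treatment of GC content. Of 36 cytosolic ribosomal proteins 16 were higher and 11 lower at a median of 0.03, and 1 and 30 at -0.39 after the correction. Of 29 nuclear-encoded respiratory chain subunits 21 were higher and 5 lower at 0.39, and 10 and 13 at -0.06 after it. The proteasome went from 22 of 28 genes higher and 0 lower at 0.36 to 15 and 8 at 0.13 after the correction. UQCRC1, a core subunit of complex III, had 180.1 and 180.0 FPKM in oeWDR76/Erastin and 90.4 and 96.4 FPKM in siDCAF8/Erastin (0.94, 0.31 corrected). The stalk protein RPLP2 had 1621 and 1663 FPKM in oeWDR76/Erastin and 1106 and 1091 FPKM in siDCAF8/Erastin (0.58, -0.22 corrected). PSMB3, a proteasome core subunit, had 218 and 223 FPKM in oeWDR76/Erastin and 105 and 102 FPKM in siDCAF8/Erastin (1.085, 0.50 corrected). Of 27 tested genes of nucleolar ribosome biogenesis 9 were higher and 9 lower at 0.01, and 1 and 21 at -0.21 after the correction. UTP20, of the small subunit processome, had 4.91 and 4.82 FPKM in oeWDR76/Erastin and 12.6 and 11.98 FPKM in siDCAF8/Erastin (-1.18, -0.58 corrected), and the methyltransferase FBL, at 0.68, was 0.02 after the correction and not called (adjusted p = 0.681). Of 31 genes of autophagy and the lysosome 16 were higher and 8 lower at 0.22, and 11 and 11 at 0.01 after the correction. MITF, which drives lysosomal genes, had 1.83 and 1.95 FPKM in oeWDR76/Erastin and 7.43 and 8.59 FPKM in siDCAF8/Erastin (-1.64), and the autophagy receptors NBR1 (-0.97) and OPTN (0.92) went opposite ways. Cytosolic chaperones were higher in 14 of 24 cases and lower in 4 at 0.43 (0.20 corrected), with HSPB8, a small heat shock protein, at 1.07 (0.66 corrected) and the co-chaperone DNAJB6 at -0.94. Lamins were higher, LMNB1 with 54.8 and 56.7 FPKM in oeWDR76/Erastin and 24.7 and 24.8 FPKM in siDCAF8/Erastin (1.14) and LMNA at 0.89 (0.46 corrected), in a list of 12 tested intermediate filaments with 5 higher and 3 lower at 0.15, and 4 and 7 at -0.47 after the correction. Of 14 histone genes 9 were higher and 4 lower at 0.44, and 7 and 5 at 0.17 after the correction, and the replication-dependent HIST1H2AC had 4.63 and 3.85 FPKM in oeWDR76/Erastin and 19.9 and 19.3 FPKM in siDCAF8/Erastin (-1.98). Of 7 tested genes of prostaglandin synthesis 4 were higher and 1 lower at 0.49, and 3 and 2 at -0.09 after the correction, the lower one before it being the terminal synthase PTGES, with 2.71 and 2.11 FPKM in oeWDR76/Erastin and 6.36 and 4.84 FPKM in siDCAF8/Erastin (-0.95, -1.48 corrected).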

How the data were processed

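RNA of HT-1080 cells was extracted with Trizol, amplified with Smart-seq v4 and sequenced on a BGISEQ500, per the labels' protocols. The authors deposited 1 table of FPKM values, for which the submitters' processing notes name StringTie and the build GRCh38. Version, aligner and annotation were not stated, nor were read counts, so depth is unknown. Of 24107 entries 17552 genes had values. Limma 3.58.1 in R 4.3.3 was fitted to log2(FPKM + 1) of 11260 genes whose mean over 16 libraries reached 1 FPKM, as 8 group means with a mean-variance trend. Tests were two-sided, with Benjamini-Hochberg adjustment within each contrast and calls at adjusted p under 0.05. Fold changes are on the log2(FPKM + 1) scale, which understates changes of low genes. To correct for GC content and length, a regression was run of each library's log2 values on splines of both (5 and 4 degrees of freedom) for 11235 genes. Data were simulated with 200 of 11260 genes moved and no GC trend between the 2 groups. There 92.8% of genes moved by 0.5 log2 and 99.6% of those moved by 1 were called for this comparison, with 4.8% and 5.7% of calls false. The real comparison called 77.4% of genes and has a GC trend, so these shares do not give its rate of false calls. Named genes are DCAF8, WDR76 and HELLS, the 20 largest called rises and 20 largest called falls, and up to 4 called members per list. The 10 largest called changes each way between treatments were added, as were genes named for their role after their values were seen. For rises and falls the groups could not overlap and the higher group mean had to reach 5 FPKM. For changes between treatments the highest of the 4 group means had to reach 5 FPKM. Genes with near-identical copies were left out, and some further named genes are not reported here. Members and lists were chosen with earlier results of these data known. Promoters are from RefSeq (GRCh38.p14). Python 3.11.15 with pandas 2.3.3, numpy 2.4.6 and matplotlib 3.10.9 made tables and plots.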

Additional observations from a re-analysis of the deposited data

Results flagged for a closer look

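The contrast between WDR76 overexpression and DCAF8 depletion differed between cells with and without erastin by a test of the difference itself for 1583 genes. Among named genes the change was positive for CA9 (1.18), FPR1 (1.17), SDF2L1 (1.06), PLK1 (1.02), CDC20 (0.99), NT5DC2 (0.95), RGS4 (0.94) and TUBG1 (0.94). It was negative for ASNS (-1.69), HMOX1 (-1.50), CTH (-1.36), SLC7A11 (-1.28), NUPR1 (-1.25), CBS (-1.20), CCND2 (-1.20) and DDIT3 (-1.04). All are log2 differences with erastin minus those without, from limma with adjusted p-values over 11260 genes. FPR1 and RGS4 were uncalled with erastin and lower in oeWDR76 than in siDCAF8 without it (-1.20 and -0.80), but with the GC content and length correction FPR1 was called lower (-0.43) and RGS4 higher (0.26) with erastin.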

How the results depend on the processing

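Over the alternatives to filter, pseudocount, scaling, trend, GC content and replicates, most named genes kept direction and side of the threshold. Of 37 list medians, 31 moved past the spread between replicates with the GC content and length correction. With quantile normalization 30 moved, and with median-ratio scaling 25. The genes past 2-fold numbered 1985 with a pseudocount of 0.1, against 1454. With the GC content and length correction the genes past 2-fold numbered 814 (463 higher, 351 lower), and 815 (464 and 351) with the replicate block added. Either way CENPE was 0.400, CENPF 0.283, FTH1 -0.147, FTL -0.191, GPX4 -0.312, NUPR1 -0.146 and RPLP2 -0.221, the opposite of their signs without it, and FTH1 was -0.035 with quantile normalization. The cause was not tested. Calls split into 4424 higher and 4303 lower with median-ratio scaling and 4201 and 4446 with quantile normalization, against 4919 and 3800. Leaving out 1 library at a time, the comparison gave 8077 to 8218 calls and 1417 to 1537 past 2-fold, and the difference between treatments 728 to 1236 calls, 509 to 786 positive and 219 to 481 negative. Same-numbered replicates had a correlation of deviations of 0.031 between oeWDR76/Erastin and siDCAF8/Erastin, and the labels do not pair them. A fit with the replicate block gave 8742 calls, 1456 past 2-fold, and 1619 calls for the difference between treatments. With 2 libraries a group, 1 manipulation each, no empty vector and depth unknown, low genes and small differences are the least certain.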
